A study of Mus musculus with 72 samples.

Results

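Transcript levels of 10 mouse genes are described, 7 genes in common use as markers of macrophages (Cd68, Adgre1, Csf1r, Lyz2, Mrc1, Cd163 and Gpnmb) and the 3 genes of complement component C1q (C1qa, C1qb and C1qc). They were picked by name from the 55401 genes counted, and each symbol mapped to 1 Ensembl identifier in both deposited tables. All 10 passed the filter on low values in every comparison.

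Macrophages settle in every tissue as resident cells, enter it as blood monocytes after damage, and clear dying cells, debris and lipid. Skeletal muscle holds a resident population between its fibers. C1q is the recognition molecule of the classical complement pathway, is assembled from the A, B and C chains, and is made in most tissues mainly by macrophages rather than by the liver cells that supply much of the other complement.

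The study crossed heterozygous Bmal1 mice to obtain whole-body Bmal1-KO males and their WT littermates, and restored Bmal1 in KO pups with AAV9-CK6-Bmal1-HA, injected at postnatal day 5. The CK6 promoter drives the transgene in skeletal muscle fibers, and the study's methods and blots describe no transgene protein in heart, liver or lung, so other cells of the KO+AAV mice, macrophages among them, remain KO as far as the promoter is specific. Gastrocnemius came from WT, KO and KO+AAV mice at 10 weeks (n = 6, 6 and 7) and at 40 weeks (n = 5 each). A second experiment at 10 weeks compared KO mice that carried a GFP vector in place of Bmal1 (KO+GFP, n = 3) with KO control mice (n = 3). Liver, heart, white fat and lung came from KO and KO+AAV mice at 40 weeks (n = 4 each). All were male and collected at ZT1, 1 hour after lights on. Libraries were made at 1 of 2 sequencing sites, called ICBR and Novogene in the labels. Each 10-week group of the first experiment was split between the sites (3, 3 and 4 ICBR libraries and 3 Novogene libraries each for WT, KO and KO+AAV), all 40-week muscle and the GFP experiment were Novogene, and the other tissues were ICBR.

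Values are normalized read counts, that is, reads per gene divided by 1 size factor per library, and each tissue and experiment was scaled on its own. The 72 libraries held 6754312 to 50755829 reads in genes, fewest in the GFP experiment and most in the 4 other tissues. The whole-gene count of Arntl (the gene of BMAL1) was 402 to 634 in WT and 196 to 296 in KO muscle at 10 weeks, with no overlap. The library labelled KO replicate 2 at 40 weeks had an Arntl count of 1039, above all 5 WT libraries of that age (480 to 608). These counts cover the whole gene and separate neither the deleted part nor the transgene, and Arntl was 169 to 281 in KO+AAV muscle at 10 weeks. Among the tissue libraries, the one labelled KO heart replicate 2 held hepatocyte transcripts summing to 1368280, against 329 to 430 in the other KO hearts. The one labelled KO white fat replicate 2 held an epithelial marker sum of 778282, and its adipocyte sum was the lowest of the group at 158268. Muscle fiber markers were present in every gastrocnemius library.

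C1qa (ENSMUSG00000036887, chr4:136895917-136898803), C1qc (ENSMUSG00000036896, chr4:136889804-136893065) and C1qb (ENSMUSG00000036905, chr4:136880129-136886187) lie next to each other on the minus strand of chromosome 4 within 18.7 kb in GRCm38. Over the 34 gastrocnemius libraries of the first experiment the 3 pairs of C1q genes had Pearson correlations of log2 counts of 0.88 to 0.92, the other pairs 0.21 to 0.91 (C1qa with Lyz2 the highest), and the median of all 45 pairs was 0.63. These are descriptions of libraries that share tissue and scaling. Windows of 250 bases before to 50 after the start were at hand in RefSeq (GRCm38.p6) for 7 of the 10 members. The 3 below are shown because C1qb and C1qc are neighbours whose levels ran closely together and Mrc1 is the member with the most separate pattern across ages. They give the bases before the annotated starts, 5' to 3' on the gene's strand, at chr4:136886201-136886350 (minus) for C1qb, chr4:136893066-136893164 (minus) for C1qc and chr2:14229242-14229391 (plus) for Mrc1. Capitals mark GAGGAA or its reverse complement TTCCTC, the purine-rich core bound by PU.1, the ETS factor of the myeloid lineage.
C1qb: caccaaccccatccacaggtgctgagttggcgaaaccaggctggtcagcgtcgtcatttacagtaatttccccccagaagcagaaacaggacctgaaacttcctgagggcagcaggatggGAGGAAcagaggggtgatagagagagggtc
C1qc: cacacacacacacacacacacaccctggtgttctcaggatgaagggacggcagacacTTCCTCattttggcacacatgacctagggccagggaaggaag
Mrc1: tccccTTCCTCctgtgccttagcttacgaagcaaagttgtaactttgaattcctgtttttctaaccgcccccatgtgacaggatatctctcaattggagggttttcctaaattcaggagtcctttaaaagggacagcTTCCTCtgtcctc
GAGGAA on either strand was found in the 300-base windows of 4 of the 7 members (Mrc1, C1qb, C1qc and Cd68), against 28.3% of all 32851 windows. The like stretches before the start of Gpnmb, Cd163, Lyz2 and Cd68, which are not shown, held 0 matches. The 3 shown are thus not typical of the members in this respect. The E-box CACGTG, the letters that BMAL1 and CLOCK bind, was found in 0 of the 7, against 7.15% of all windows. Matches are letters in a window and not measured binding.

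The comparison of KO+AAV with KO muscle at 10 weeks asked what Bmal1 in muscle fibers alone alters in a KO animal. The labels name no vector for the KO mice of this experiment, so the vector and Bmal1 cannot be told apart in it, and a vector with GFP is compared with KO controls in a separate experiment described further on. All 10 members had a fitted difference above 0, with a median log2 fold change of 1.31 against 0.01 over all 16199 genes tested. By limma only C1qc rose at P under 0.01, which was 1 of 10 members beside 2.63% of all genes, and its adjusted P was 0.232. At P under 0.05 there were 9 members, beside 9.23% of all genes. No member passed an adjusted P of 0.05, beside 0.204% of all genes. The study applied the cutoff of 0.01 to DESeq2. The count tests edgeR and DESeq2, given below, called more members than limma.

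C1qc, the C chain, ran from 8.41 through a median of 43.3 to 79.6 normalized counts in KO and from 56.4 through 93.7 to 341 in KO+AAV. The groups overlapped for this gene as for all 10 members (0.574% of all genes did not), and the KO libraries at 8.41 and 16.9 (replicates 7 and 6) lay below all others. The fold change was 1.63 ± 0.49 (log2, SE). C1qa, the A chain, ran from 21.9 through 60.3 to 111 in KO and from 72.2 through 145 to 607 in KO+AAV, with a log2 fold change of 1.36 ± 0.50 (limma adjusted P = 0.378). C1qb, the B chain, ran from 33.6 through 53.0 to 115 in KO and from 58.1 through 109 to 593 in KO+AAV, a difference of 1.26 ± 0.51 (limma adjusted P = 0.449). For all 3 chains the highest KO+AAV library was replicate 5 and the next highest replicate 4.

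Among the macrophage markers, Adgre1 (ENSMUSG00000004730, chr17:57358691-57483527), which encodes the surface receptor F4/80, ran from 5.05 through 22.9 to 36.9 in KO and from 21.2 through 45.7 to 229 in KO+AAV, with a log2 fold change of 1.44 ± 0.67 (limma adjusted P = 0.523). Csf1r (ENSMUSG00000024621), the receptor for the growth factors CSF1 and IL-34 on which macrophages depend, ran from 67.2 through 112 to 173 and from 87.4 through 188 to 495, a difference of 0.85 ± 0.32 (limma adjusted P = 0.394). Of its exon bases 15.1% are shared with Hmgxb3 on the other strand, so its values are uncertain in so far as the counting ignored strand. Cd163 (ENSMUSG00000008845, chr6:124304656-124330527), the scavenger receptor for haptoglobin-hemoglobin complexes, ran from 5.05 through 40.0 to 87.3 in KO and from 45.04 through 73.9 to 188 in KO+AAV. Its difference was 1.20 ± 0.49 (limma adjusted P = 0.449). Mrc1 (ENSMUSG00000026712, chr2:14229392-14332057), the mannose receptor CD206 of resident macrophages, showed the smallest difference of the 10, 0.47 ± 0.32 (limma adjusted P = 0.697), with 123 through 189 to 293 in KO and 167 through 212 to 563 in KO+AAV.

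The lysosomal and secreted members held the widest spread. Cd68 (ENSMUSG00000018774, chr11:69664213-69666153), a lysosomal membrane protein of phagocytes, was 1.68 to 25.1 in KO with a median of 19.3, and 13.2 to 586 in KO+AAV with a median of 25.2. Gpnmb (ENSMUSG00000029816, chr6:49036546-49070929), a membrane glycoprotein of phagocytes with a heavy lysosomal load, was 19.97 to 42.4 in KO (median 33.7) and 15.9 to 2081 in KO+AAV (median 55.4). Lyz2 (ENSMUSG00000069516, chr10:117277331-117282321), lysozyme M, was 126 to 537 in KO (median 313) and 262 to 5150 in KO+AAV (median 503). Their log2 fold changes were 1.46 ± 0.69, 1.42 ± 0.66 and 1.12 ± 0.52, and their SEs were the largest beside that of Adgre1. Lyz2 has a near-identical neighbour, Lyz1, so its reads could be split or shared between them, and Lyz1 held 1 to 141 reads in the KO and KO+AAV muscle libraries of 10 weeks.

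**Figure D1:**
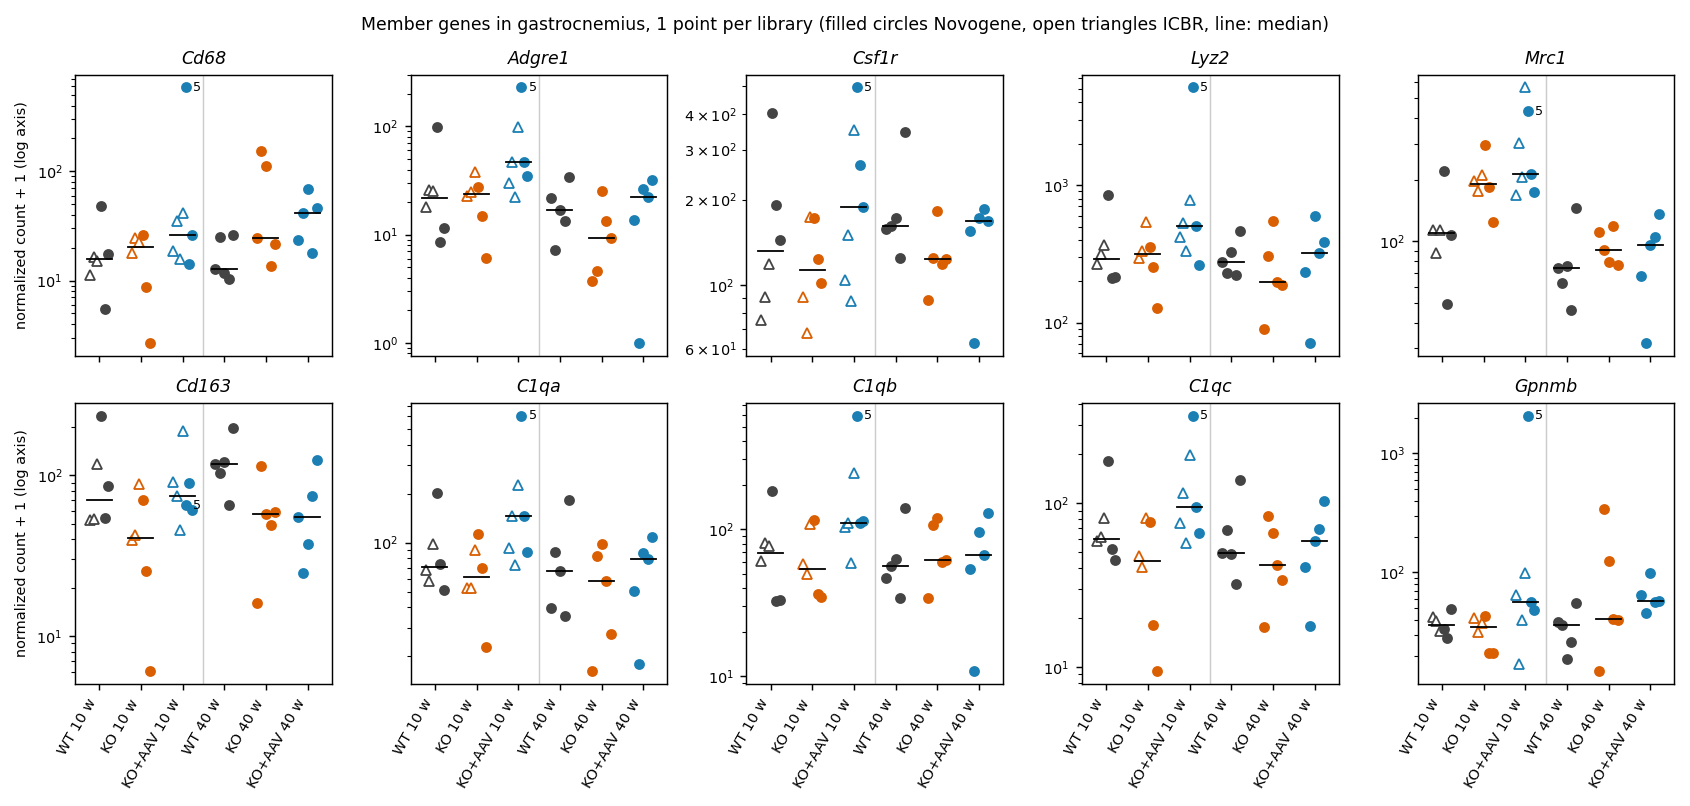
Normalized read counts (log axis) of the 10 members in each gastrocnemius library of the first experiment, by genotype and age, 1 point per library and a bar at the median. KO+AAV replicate 5 at 10 weeks stands far above the others for Gpnmb (2081), Cd68 (586) and Lyz2 (5150), and Mrc1 is lower at 40 than at 10 weeks in KO and KO+AAV.

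One library, KO+AAV replicate 5 (Novogene), was the highest of its group for 8 of the 10 members. Relative to the median of the other 6 KO+AAV libraries it held 40.4 times as much Gpnmb, 27.3 times as much Cd68, 11.2 times as much Lyz2, 5.77 times as much Adgre1 and 4.06 to 5.41 times as much of the C1q chains. Csf1r was 2.94 times and Mrc1 2.06 times that median, and Cd163 was below it at 0.79 times. The members thus did not move as a block in this muscle, since the ratio differed by over an order of magnitude between Gpnmb and Mrc1.

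**Figure D2:**
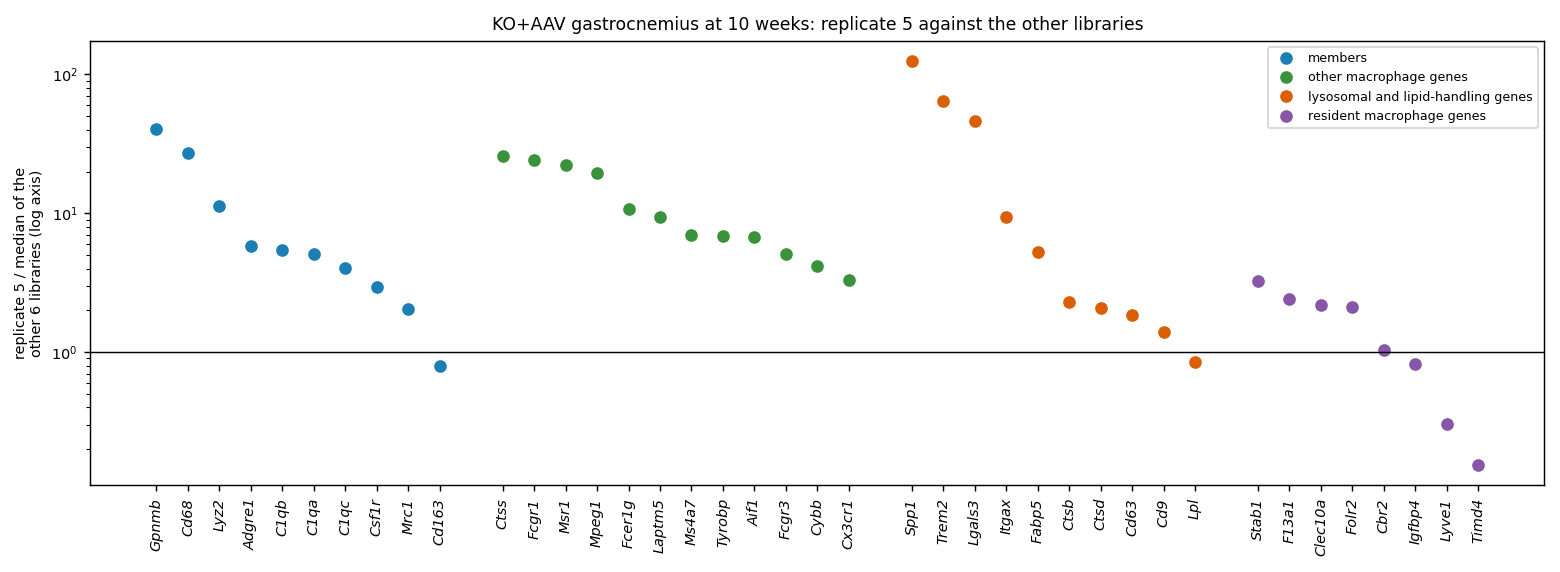
Normalized count in KO+AAV replicate 5 at 10 weeks divided by the median of the other 6 KO+AAV libraries (log axis), for the members and for genes of the resident, lipid-handling and companion lists. Spp1 (125 times) and Trem2 (64.8 times) lie at the top with Gpnmb (40.4 times), Cd163 (0.79), Lyve1 (0.31) and Timd4 (0.15) lie below 1, and the resident gene Stab1 (3.24) lies above it.

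Of 10 genes outside the members that are known from lipid-handling, phagocytic macrophages, 8 were above all other KO+AAV libraries in replicate 5. Spp1, osteopontin, was 4024 against 11.2 to 143, Trem2, a lipid-sensing receptor, was 265 against 1.40 to 16.4, and Lgals3, galectin-3, was 2382 against 21.0 to 119. Cd9 (1.40 times the median of the others) and Lpl (0.85 times) lay inside the range of the others. The 8 genes of resident macrophages were divided. Lyve1 (16.4 against 28.2 to 68.9) and Timd4 (1.26 against 1.98 to 12.6) were below all other KO+AAV libraries, Stab1 (3.24 times the median) and Folr2 (2.12 times) were above all of them, and F13a1 (2.41 times), Clec10a (2.18 times), Cbr2 (1.04 times) and Igfbp4 (0.82 times) lay inside the range. Of 8 phagocytosis receptor and bridging genes 5 were above the median and 1 above all others, and Axl (0.87 times) and Cd36 (0.83 times) were below the median. The summed count of 12 companion macrophage genes was 4921 in replicate 5 and 290 to 859 in the other KO+AAV libraries. This library was not named in the labels as different in any way, and its genes were singled out after the values were seen.

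Without replicate 5 the C1qc fold change was 1.30 (limma adjusted P = 0.557), 0 members were called by limma at P under 0.01, 4 reached P under 0.05 (6.94% of all genes) and the median over the members was 0.79. The values fell furthest for Cd68 (0.70), Gpnmb (0.58) and Lyz2 (0.55). Leaving out KO replicate 7, the lowest KO library for 8 of the 10 members, also left 0 members called, with C1qc at 1.26. The count tests on recovered reads called more of the members. With all libraries the calls were 6 by edgeR beside 3.44% of all genes and 8 by DESeq2, the tool of the study, beside 4.36%. Of these 0 and 1 passed an adjusted P of 0.05, beside 0.309 and 0.920% of all genes. In replicate 4, which was highest for Mrc1 (563) and Cd163 (188), the fibroblast marker sum was 112875, against 11829 to 20197 in the other 6. In these bulk samples, more macrophages and more RNA per macrophage cannot be told apart.

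Within each site the direction was that of the pooled fit for all 10 members. With the ICBR libraries alone the median difference was 0.56 and 0 members were called, 2 reached P under 0.05 (9.73% of all genes), and C1qc was 0.88. With the Novogene libraries alone the median was 1.93 and C1qc was called (2.46, limma adjusted P = 0.771). With Novogene replicate 5 also removed the median was 1.05 and 0 were called. The difference between the sites was itself tested. It was larger at Novogene for 9 of the 10 members with a median of 1.37, widest for Cd68 (2.58 ± 1.51, limma adjusted P = 0.9998) and Gpnmb (2.43 ± 1.49, limma adjusted P = 0.9998). It was called for 0 members by limma beside 0.629% of all genes, with 0 at P under 0.05 beside 3.98% (edgeR called 0 and placed 3 under 0.05).

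Other genes of the pathway gave few calls in this comparison. C5ar1, a receptor for the C5a fragment, rose by 1.75 ± 0.63 (limma adjusted P = 0.37), and was 1 of 5 complement receptors tested. The companion macrophage genes were above 0 in 12 of 12 cases with a median of 1.28, and Fcer1g, the signalling chain of Fc receptors, was the 1 called (1.29 ± 0.46). Folr2, a marker of resident macrophages, rose by 1.43 ± 0.41 (limma adjusted P = 0.18). These fold changes include KO+AAV replicate 5, where all 12 companion genes were above all other KO+AAV libraries. Fcer1g was 311 there against 22.8 to 49.3, C5ar1 68.2 against 7.60 to 24.4, and Folr2 85.9 against 27.7 to 58.5. None of the 5 classical pathway genes (C1ra, C1s1, C2, C3 and C4b) was called. Endothelial, muscle fiber and fibroblast lists had 0 of 5, 0 of 6 and 0 of 5 genes called, and the fibroblast sum was 5223 to 19821 in KO and 11829 to 112875 in KO+AAV. The part of fibroblast RNA in the members' values was not tested.

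**Figure D3:**
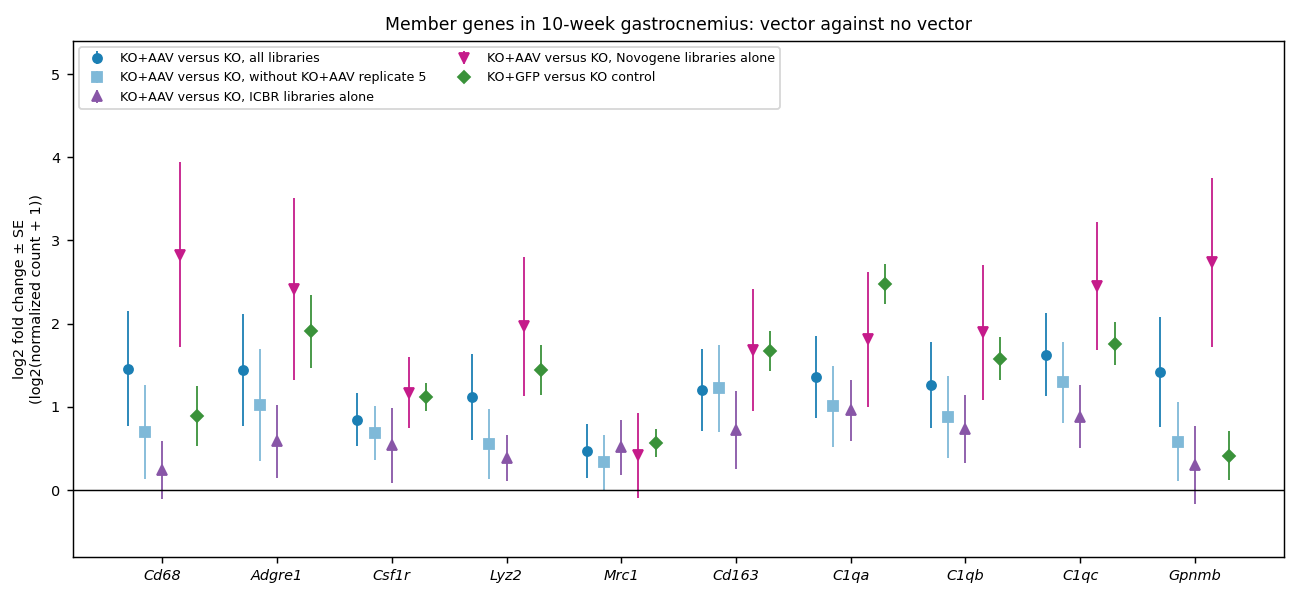
Log2 fold changes with SE bars for the 10 members against KO muscle at 10 weeks, for KO+AAV with all libraries, for KO+AAV without replicate 5, and for KO+GFP against its own KO control. The KO+AAV values with all libraries run from 0.47 for Mrc1 to 1.63 for C1qc, and those of KO+GFP from 0.42 for Gpnmb to 2.47 for C1qa.

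The GFP experiment asked what a vector without Bmal1 alters in KO muscle, with its own control mice and its own normalization. Here 8 of the 10 members rose with GFP (limma, P under 0.01), beside 8.24% of all 14477 genes, and 7 passed an adjusted P of 0.05, beside 3.09%. At P under 0.05 there were 9 members, beside 18.7%. The counts of 9 members did not overlap between the 3 and 3 libraries, where 23.5% of all genes did not overlap. The median log2 fold change of the members was 1.51, that of all genes 0.00.

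C1qa showed the largest difference, 63.0, 71.1 and 60.8 with GFP against 10.9, 12.5 and 9.33 in the controls. All 3 GFP libraries were above all controls, and the fold change was 2.47 ± 0.24 (log2, limma adjusted P = 0.0004). C1qc was 51.8, 67.7 and 48.5 against 13.9, 20.46 and 13.5, a rise of 1.76 ± 0.26 (limma adjusted P = 0.0037). C1qb was 46.2, 58.7 and 54.6 against 13.9, 22.7 and 15.5, a rise of 1.58 ± 0.26 (limma adjusted P = 0.0064). The C1q transcripts came from few reads in the controls, 37 in the library with fewest and 143 in the lowest GFP library.

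The surface receptors rose as well. Adgre1 was 14.6, 31.4 and 29.1 with GFP against 3.97, 10.2 and 4.15 (1.91 ± 0.44, limma adjusted P = 0.0386). Cd163 was 70.9, 54.5 and 50.2 against 16.9, 20.46 and 15.5 (1.67 ± 0.24, limma adjusted P = 0.0032). Csf1r was 106, 155 and 137 against 58.6, 62.5 and 58.0 (1.12 ± 0.17, limma adjusted P = 0.0041). Separation between the groups was complete for each of these receptors. Mrc1 was 108, 121 and 116 against 63.5, 95.5 and 76.7, and its rise of 0.56 ± 0.17 had an adjusted P of 0.0933 (limma).

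Lyz2 was 167, 368 and 269.7 with GFP against 83.4, 148 and 65.3, a rise of 1.44 ± 0.30 (limma adjusted P = 0.0235). The remaining lysosomal members were not called. Cd68 was 24.8, 12.4 and 22.03 against 7.94, 12.5 and 9.33, with 1 GFP library inside the range of the controls (0.89 ± 0.37, limma adjusted P = 0.209). Gpnmb was 16.9, 21.5 and 24.7 against 15.9, 13.6 and 16.6, with the smallest difference of the members (0.42 ± 0.29, limma adjusted P = 0.492). Gpnmb and Cd68 were also the members with the largest ratios in KO+AAV replicate 5.

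Leaving out each of the 6 libraries in turn left 7 or 8 members called, and 4 to 7 at an adjusted P under 0.05, with 4 without KO+GFP replicate 3. Among the resident macrophage genes 5 of 7 tested rose, led by F13a1, a transglutaminase subunit (1.93, limma adjusted P = 0.0023), Lyve1 (2.18, limma adjusted P = 0.033) and Clec10a (2.13, limma adjusted P = 0.049). Of 7 phagocytosis receptor genes 4 rose (Lrp1, Cd36, Axl and Tyro3), as did Mpeg1 and Cx3cr1 of 8 companion genes and C3ar1, the receptor for C3a, of 3 complement receptors (2.40). C3 rose (1.08) as 1 of 5 classical pathway genes, and Serping1, the C1 inhibitor gene, rose (0.61) while Cd55 fell (-0.49) among 7 regulators. The genes of the ligands Csf1 and Il34 gave 0 of 2 calls and the myeloid transcription factors 1 of 7, Maf, which fell (-0.64). Fibroblast markers moved too, 3 of 5 rose (Dcn, Pdgfra and Lum), with summed counts of 5847 to 8761 with GFP and 2545 to 10100.1 in the controls, and muscle fiber sums were 816207 to 875210 against 1014060 to 1196400. Their part in the result was not tested. None of the 6 T cell or 5 B cell genes reached the filter, and their sums were 1.13 to 7.44 and 4.50 to 14.0 with GFP against 2.07 to 12.5 and 5.68 to 12.4.

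In the share of C1q transcripts per length, C1qa took 27.6, 29.7 and 34.5% in the controls and 43.4, 43.7 and 46.7% with GFP. In the other 15 groups the median share of C1qa was 36.2 to 44.8%, but single libraries were as low as the controls, down to 25.7% in KO gastrocnemius at 40 weeks. Over the 4 other tissues, where C1q reads were over 1000 per library, the shares of the 3 chains were 36.0 to 47.6% for C1qa, 34.6 to 41.0% for C1qb and 17.8 to 23.6% for C1qc. With 37 reads at the lowest, the control shares rest on few counts.

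The comparison of WT with KO muscle at 10 weeks asked what loss of Bmal1 alters. None of the 10 members was called by limma, beside 10.9% of all genes, with 2 at P under 0.05 beside 19.6%, and edgeR and DESeq2 also called 0. Cd163 was 51.7 through a median of 68.9 to 235 in WT and 5.05 through 40.0 to 87.3 in KO (WT over KO 1.30 ± 0.51, limma adjusted P = 0.122). Mrc1 was 48.4 through 109 to 219.8 in WT and 123 through 189 to 293 in KO (-0.87 ± 0.34, limma adjusted P = 0.120). The groups overlapped for all 10 members (6.06% of all genes did not), and these 2 were the members with the widest distance in either direction. Without WT replicate 5, the highest WT library for 9 of the 10 members, Mrc1 was called (-1.10 ± 0.33, limma adjusted P = 0.0391).

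Mrc1 was the 1 of 10 members called by limma between WT and KO+AAV muscle at 10 weeks. That share is near the 8.75% of all genes (5.15% at an adjusted P under 0.05). Mrc1 was lower in WT, 48.4 through 109 to 219.8 against 167 through 212 to 563 in KO+AAV, by -1.34 ± 0.32 (log2, limma adjusted P = 0.0098). The groups overlapped through WT replicate 5 alone, and overlap was found in all 10 members (2.86% of all genes had none). The fold change was -1.20 without KO+AAV replicate 5 (limma adjusted P = 0.033), -0.98 without replicates 4 and 5 (limma adjusted P = 0.107), -1.41 with the ICBR libraries (limma adjusted P = 0.058) and -1.26 with the Novogene libraries, where it was no longer called (limma adjusted P = 0.42). The other 9 members were not called by limma, and 8 of them lay below 0. edgeR and DESeq2 each called more members than limma, Cd68 among them (edgeR and DESeq2 adjusted P = 0.0707 and 0.0317). By limma 2 members, Mrc1 included, were at P under 0.05, beside 18.1% of all genes. Of the 12 companion genes, Cx3cr1, the fractalkine receptor of resident macrophages and monocytes, was lower in WT than in KO (-1.97 ± 0.54, limma adjusted P = 0.017). It was also lower than in KO+AAV (-2.69 ± 0.52, limma adjusted P = 0.0011). Other companion genes went either way between WT and KO. Their WT and KO medians were 49.7 and 37.0 for Ctss, 46.6 and 50.7 for Laptm5, and 36.1 and 44.5 for Mpeg1.

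Of the classical pathway genes outside C1q, 2 of 5 were called between WT and KO at 10 weeks, where 10.9% of all genes were. C3, the central component, was 1.74 ± 0.42 higher in WT (limma adjusted P = 0.0071) and C1ra, a protease that docks onto C1q, 0.94 ± 0.27 higher (limma adjusted P = 0.028). At 40 weeks, where 22.5% of all genes were called, 4 of the 5 were higher in WT, C3 by 2.04, C1ra by 1.26, C1s1 by 0.96 and C2 by 0.84, with limma adjusted P values of 0.0016 to 0.026. None of the C1q chains was called in either comparison. The log2 differences of WT over KO for C1qa, C1qb and C1qc were 0.45, 0.12 and 0.99 at 10 weeks and 0.57, -0.21 and 0.49 at 40 weeks, and C1qb at 10 weeks was -0.20 without WT replicate 5.

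At 40 weeks the members gave no call in muscle. WT against KO had 0 of 10 called by limma beside 22.5% of all genes, with 1 at P under 0.05 beside 35.3%. WT against KO+AAV had 0 beside 14.6%, with 0 at P under 0.05 beside 25.8%, and KO+AAV against KO had 0 beside 3.25%, with 0 at P under 0.05 beside 10.1%. edgeR and DESeq2 called 0 in each of these. The median of KO+AAV over KO was 0.15, with 6 of 10 members above 0.

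Spread within the KO group was wide at this age. Cd68 in the KO libraries was 23.4, 152, 110.4, 12.5 and 20.7, against 11.9, 23.8, 10.6, 9.38 and 25.0 in WT and 22.3, 40.7, 67.7, 16.8 and 45.5 in KO+AAV. Gpnmb was 13.8, 340.3, 123, 39.3 and 38.6 in KO, 37.1, 35.1, 17.7, 25.0 and 54.7 in WT, and 63.8, 44.9, 98.7, 54.9 and 56.3 in KO+AAV. The KO libraries labelled replicates 2 and 3 were the high ones for both genes, and replicate 2 is the library with the Arntl count above WT. WT over KO was -1.39 ± 0.78 for Cd68 (limma adjusted P = 0.209) and -0.95 ± 0.75 for Gpnmb (limma adjusted P = 0.389). Without the library labelled KO replicate 2 they were -0.91 and -0.34, the count of members called stayed 0 in all 3 comparisons of this age, and the median of KO+AAV over KO was 0.29. Mrc1 in KO muscle differed between the ages by -0.98 without it. Mrc1, in contrast, was narrow in KO at 110.1, 89.5, 78.2, 118 and 75.9, and those same libraries were not its highest. Single genes of other lists also differed between WT and KO, where 22.5% of all genes were called. Lgals3, 1 of 10 lysosomal and lipid-handling genes, was lower in WT (-2.09 ± 0.66, limma adjusted P = 0.020). Runx1, 1 of 8 myeloid transcription factors, was lower as well (-2.15). Csf1, 1 of the 2 ligands of Csf1r, was higher in WT (0.77, limma adjusted P = 0.0074). The cells that these transcripts came from were not tested.

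The comparison between ages was made within each genotype with the site as a term, since ICBR libraries existed at 10 weeks alone. In KO+AAV muscle all 10 members lay below 0 at 40 against 10 weeks, with a median of -1.19, and 6 reached P under 0.05, beside 23.9% of all genes. By limma the 1 of 10 called was Mrc1, a share near the 12.1% of all genes (8.53% at an adjusted P under 0.05). Mrc1 was 66.9, 30.9, 95.4, 104 and 134 at 40 weeks and 167 through 212 to 563 at 10 weeks, with no overlap (5.88% of all genes). It fell by 1.73 on the log2 scale (SE 0.37, limma adjusted P = 0.0034). With all libraries edgeR and DESeq2 each called more members than limma, Lyz2 among them (edgeR and DESeq2 adjusted P = 0.0345 and 0.0202). Without KO+AAV replicate 5 the limma difference of Mrc1 was -1.54 (limma adjusted P = 0.0145). In that fit 8 members lay below 0, the median was -0.68 and 1 reached P under 0.05 (21.7% of all genes). Within the Novogene libraries Mrc1 was at -1.69 (limma adjusted P = 0.051), and with replicate 5 also removed at -1.30 (limma adjusted P = 0.243), which is no longer a call.

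In KO muscle Mrc1 was also separate between the ages, 110.1, 89.5, 78.2, 118 and 75.9 at 40 weeks against 123 through 189 to 293 at 10 weeks, where 4.94% of all genes did not overlap. The difference was -0.997 ± 0.38 (limma adjusted P = 0.0934), and 0 members were called beside 12.1% of all genes (8.31% at an adjusted P under 0.05), with 1 at P under 0.05 beside 24.3%. edgeR and DESeq2 each called 1 member, Mrc1, beside 11.5 and 12.8% of all genes, with adjusted P values of 0.0751 and 0.0425. In WT muscle 0 members were called by limma, edgeR or DESeq2 beside 2.27% of all genes, with 0 at P under 0.05 in each (7.46% of all genes by limma), and all 10 overlapped between the ages (2.64% of all genes did not).

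Whether the difference between genotypes changed with age was tested as an interaction. For KO+AAV over KO all 10 members had a smaller difference at 40 weeks (median change -1.05), but 0 were called by limma beside 1.08% of all genes (0.00617% at an adjusted P under 0.05), and C1qb (-1.61 ± 0.78, limma adjusted P = 0.929) was the 1 at P under 0.05 (5.15% of all genes). For WT over KO+AAV all 10 lay above 0, 0 were called beside 4.12% (0.642% adjusted), and Mrc1 (1.27 ± 0.49, limma adjusted P = 0.282) was the 1 under 0.05 (11.8% of all genes). For WT over KO 0 were called beside 4.47%, with 0 under 0.05 beside 13%. edgeR and DESeq2 called 0 in the last pair and 1 each in the first, beside 1.01 and 1.41% of all genes. With age in KO+AAV muscle, C5ar1 (-2.37, limma adjusted P = 0.037), Cd93 (-0.83), Csf1 (-0.74) and the scavenger receptor gene Msr1 (-2.66, limma adjusted P = 0.053) fell, as did the collagen genes Col1a1 (-2.45) and Col1a2 (-2.37) of the fibroblast list. These falls include high libraries of 10 weeks. KO+AAV replicate 5 held 181 of Msr1 against 2.47 to 16.1 in the others, and 68.2 of C5ar1 against 7.60 to 24.4. Cd93 and Csf1 lay inside the range of the others. Col1a1 reached 49980 among the others, whose median was 5897.

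Outside muscle most members reached higher levels. In reads per kilobase of exon, scaled to library depth (RPKM), which allows genes to be ranked, the median KO level at 40 weeks was above that of gastrocnemius for all 10 members in heart, white fat and lung and for 9 in liver. The median ratio was 3.97 in liver, 5.03 in heart, 7.55 in lung and 22.3 in white fat. Muscle of this age was Novogene and the other tissues were ICBR at greater depth, so tissue and site cannot be told apart. The KO heart and white fat medians include the libraries that held hepatocyte or epithelial transcripts. Gpnmb was the exception in liver at 0.0571 times the muscle level, and it was close to muscle in heart at 1.41 times. Lyz2 was the first of the 10 in all 16 groups. Its median RPKM was 2781 in KO lung, 247 in KO white fat, 53.3 in KO heart, 21.2 in KO liver and 8.96 in KO gastrocnemius at 40 weeks. C1qa had a median RPKM of 82.1 in KO white fat, 21.9 in heart, 17.9 in liver and 3.30 in gastrocnemius at 40 weeks. The lowest member differed by tissue. It was Gpnmb in liver (median RPKM 0.0207 in KO, with 0 reads in 1 library), heart (0.510) and white fat (4.21), Cd163 in lung (1.69), and Adgre1 in gastrocnemius at 40 weeks (0.155 in KO, from 2 to 16 reads a library).

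**Figure D4:**
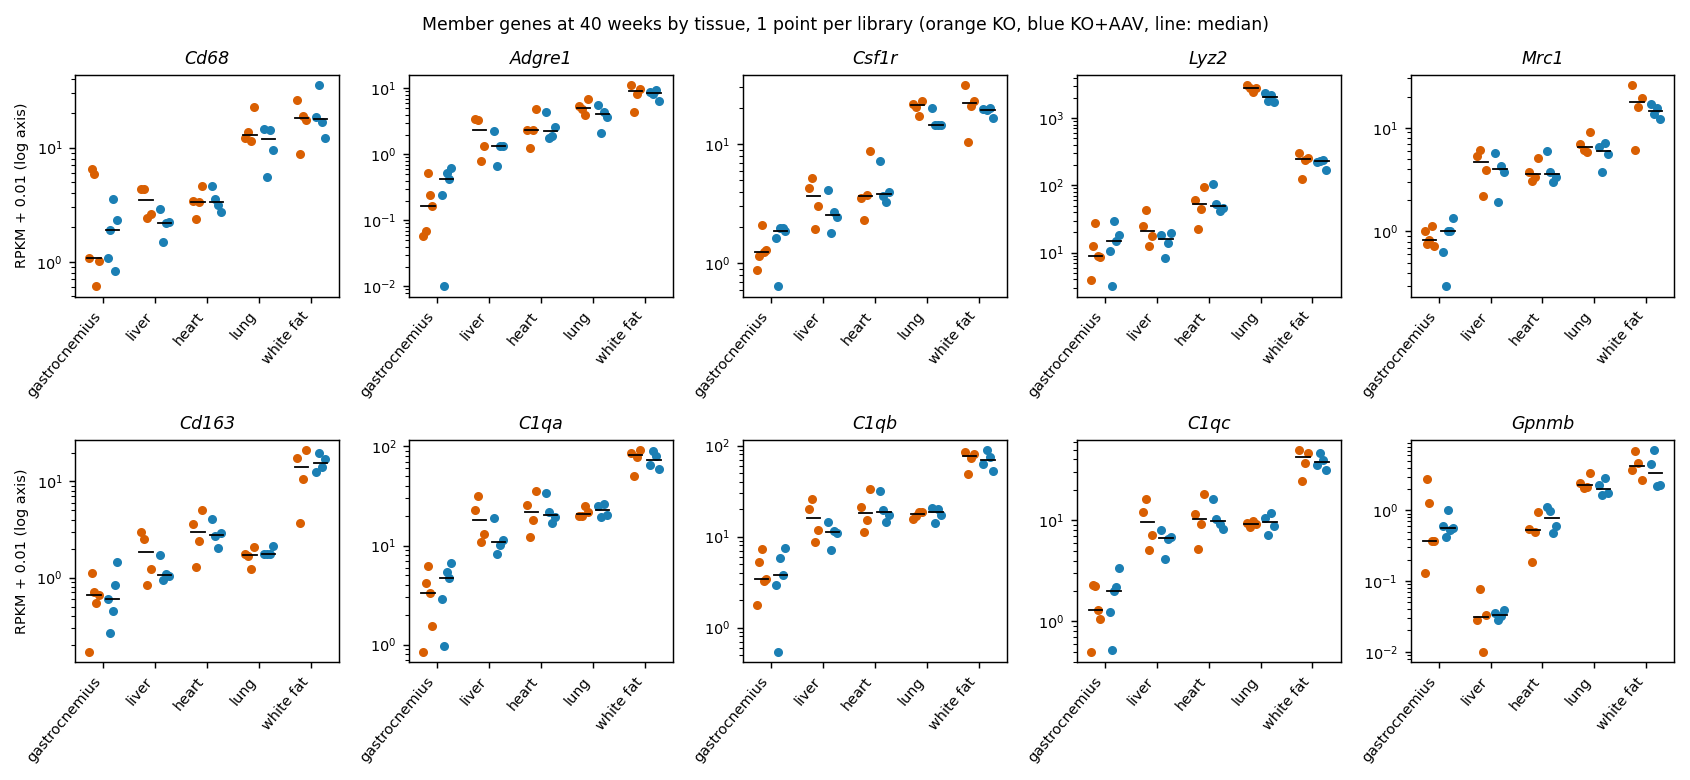
RPKM (log axis) of the 10 members in KO and KO+AAV libraries of gastrocnemius, liver, heart, white fat and lung at 40 weeks, 1 point per library. Lyz2 in lung (KO median 2781) is the highest value, and Gpnmb in liver (KO median 0.0207) the lowest.

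In lung, Lyz2 was 189877, 160419, 136014 and 157295 in KO and 131383, 105617, 126863 and 103877 in KO+AAV. No KO+AAV library reached the lowest KO library (no overlap in 6.77% of all genes), and Lyz2 fell by 0.46 on the log2 scale (SE 0.13, limma adjusted P = 0.234). It was the 1 member called beside 3.96% of all genes, and 0 passed an adjusted P of 0.05 beside 0.0237%. At P under 0.05 there were 2 members, beside 11.9%. Csf1r was 5774, 5155, 4307 and 5756 in KO and 4984, 3708, 3651 and 3723 in KO+AAV (-0.39 ± 0.13, limma adjusted P = 0.271). The C1q chains differed by 0.02 to 0.06.

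Lung Lyz2 lost its call when KO replicate 1, 2 or 4 or KO+AAV replicate 2 or 4 was left out. Lyz1 reads, which could be exchanged with Lyz2, were 4125 to 8330 in KO and 1949 to 3137 in KO+AAV lung. Markers of other cells moved with the groups in lung. All 5 cardiomyocyte genes were higher in KO+AAV, with sums of 3126 to 34122 in KO and 52080 to 179610 in KO+AAV, and none of the 5 was at 0. Of 8 alveolar macrophage genes Ear1 (-1.24) and Krt79 (-0.92) were lower, with sums of 21281 to 30136 in KO and 14982 to 37900 in KO+AAV. The neutrophil gene S100a9 was lower too (-0.99), as 1 of 6, with sums of 5413 to 11149 and 3607 to 7816. Their part in the result was not tested.

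Heart, liver and white fat gave 0 of 10 members called by limma, beside 0.0829, 0.546 and 0.0711% of all genes, and edgeR and DESeq2 called 0 as well. In heart all 10 members lay above 0 with a median of 0.05, and without the library labelled KO replicate 2 that held hepatocyte transcripts 1 lay above 0 with a median of -0.13. In white fat the median was 0.03 with 8 above 0, and without KO replicate 2 it was -0.19 with 2 above 0. No member was at P under 0.05 in either tissue, beside 1.28% of all genes in heart and 1.04% in white fat, and all overlapped between the groups (1.85% of all genes in heart and 1.31% in white fat did not). The direction in heart and white fat thus changed for most members when that 1 KO library was left out. Other libraries also weighed on it. KO+AAV heart replicate 1 was the highest of its group for all 10 members, and KO+AAV white fat replicate 3 for 7.

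In liver 9 of 10 members lay below 0 with a median of -0.52, and Cd68 was the 1 at P under 0.05, beside 3.32% of all genes. It was 238, 213, 124 and 136 in KO and 151, 80.7, 113 and 114 in KO+AAV, a difference of -0.61 ± 0.26 (limma adjusted P = 0.998). The groups overlapped for all 10 members, where 2.13% of all genes did not. KO replicate 3 and KO+AAV replicate 2 were the lowest of their groups for all 10 members. Without KO replicate 3, 7 members reached P under 0.05 (4.12% of all genes), 0 were called, and the median was -0.81. Leaving out a library that is lowest in KO widens these differences. Leaving out KO+AAV replicate 2 moves them the other way, by an amount not given here. With each of the 8 libraries left out in turn, 0 members were called. The Kupffer cell list, the resident macrophages of liver, had 0 of 6 genes called, with sums of 2138 to 7392 in KO and 1820 to 4117 in KO+AAV.

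The 5 genes whose levels over the 34 gastrocnemius libraries were most like the mean of the 10 standardized members, out of 16189 others, were Laptm5 (Pearson r = 0.91), Ccl6 (0.90), Ctss (0.90), Fcgr2b (0.89) and Mpeg1 (0.89). Laptm5 is a lysosomal protein of blood-derived cells, Ctss is cathepsin S, and Fcgr2b is the inhibitory Fc receptor. Laptm5 ran from 33.3 through 46.6 to 97.9 in WT and from 18.5 through 50.7 to 87.9 in KO at 10 weeks. KO+AAV replicate 5 is among the points. Without it the 45 pairs of members had a median r of 0.61, the C1q pairs 0.84 to 0.90, the highest other pair 0.90, and the lowest pair, Mrc1 with Gpnmb, 0.01.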

How the data were processed

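RNA was sequenced from 72 samples as poly(A) libraries. Per the labels and the study's methods, the authors used HISAT2 and HTSeq to get reads per gene on GRCm38, and DESeq2 size factors to scale them. The deposited values are this normalized signal, 1 table for the first experiment and 1 for the GFP experiment, and each tissue was scaled separately. The annotation release and the strand setting of the counting are not given in the sources used here. Every deposited signal value came out as a whole number of reads within a tolerance of 0.1 once the step of 1 read was found (100% of values in every column), so read totals and count tests were available. Columns were matched to samples by name, and 0 columns were left unmapped.

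Genes with a mean above 5 were fitted with limma 3.58.1 (R 4.3.3, trend) on log2 of the normalized count plus 1, so fold changes of low genes are understated. The 34 gastrocnemius libraries of the first experiment entered 1 model with 6 groups and the site. The GFP experiment and each tissue were fitted alone. A call is P under 0.01, the cutoff of the study, which applied it to DESeq2 fits. Benjamini-Hochberg adjusted P values run over all genes tested. The sites were compared by an interaction term in the KO and KO+AAV libraries of 10 weeks. The alternatives were edgeR 4.0.16 and DESeq2 1.42.0 on the recovered reads, TMM scaling, a pseudocount of 0.5, a mean above 50, no site term, each site alone, a replicate block, and leaving out each library in turn. RPKM used the exon bases of GENCODE vM21, and tables and plots were made with pandas 2.3.3 and matplotlib 3.10.9. On simulated counts limma called 83% of genes changed 2-fold and 97% of those changed 4-fold for KO+AAV against KO (16199 genes). The values were 74% and 94% for GFP (14477 genes), and 75% and 96% for lung (21072 genes). Of unchanged genes 0.882%, 0.859% and 0.998% were called. Each rate for changed genes rests on 100 genes. The rate for the members, at their own spread between libraries, was not tested, so these values cannot be read as theirs.

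The labels number the libraries as replicates, and P values measure the spread between these libraries. The members and the gene lists were chosen with earlier results of these data known, so their direction is not independent evidence. Named genes are the 10 members, Arntl, up to 3 genes per list with the smallest P under 0.01 in a comparison, and the 5 genes most like the members, and others were chosen after their values were seen. The precision of low members is set by few reads, and at a floor of 3 reads a gene could not be told from absent.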

Additional observations from a re-analysis of the deposited data

Results flagged for a closer look

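Of the 140 combinations of member and group with 4 to 10 libraries, 22 held a library whose gap to its nearest neighbour exceeded the 95% critical value of Dixon's test. The test used normalized counts without a log. Its rate of about 1 in 20 by chance holds for normal values in independent tests. Counts need not be normal and the members were correlated over libraries, so the 22 cannot be set against that rate. The groups of 3 in the GFP experiment were not tested. Of the 22, 8 came from WT replicate 5 at 10 weeks, with normalized counts of 46.9 for Cd68 (the other 5 WT libraries held 4.54 to 16.7), 97.9 for Adgre1 (7.57 to 25.0), 402 for Csf1r (74.6 to 191), 847 for Lyz2 (209 to 368), 235 for Cd163 (51.7 to 117), 202 for C1qa (49.96 to 97.4), 182 for C1qb (31.8 to 79.2) and 181 for C1qc (43.9 to 79.6). Gpnmb and Mrc1 were not among them.

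KO+AAV replicate 5 at 10 weeks gave another 6, at 586 for Cd68, 229 for Adgre1, 5150 for Lyz2, 607 for C1qa, 593 for C1qb and 2081 for Gpnmb, and KO+AAV replicate 4 gave Cd163 at 188 (the others 45.04 to 89.4). Both libraries numbered 5 are Novogene libraries, but they differ in which members stand out, since Gpnmb was 32.2 in WT replicate 5 and 2081 in KO+AAV replicate 5. At 40 weeks the values were 344 for Csf1r and 138 for C1qb in WT replicate 5, and 61.8 for Csf1r in KO+AAV replicate 2, the one low value of the set.

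In the tissues, single KO+AAV libraries stood above the rest of their group, with 4984 for Csf1r in lung replicate 1 (3651 to 3723 in the others), 5379 for Lyz2 in heart replicate 1 (2405 to 2908), 383 for Cd163 in liver replicate 1 (219 to 242) and 524 for Cd163 in lung replicate 4 (409 to 422).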

How the results depend on the processing

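The values below are counts of members called at P under 0.01, unless an adjusted P under 0.05 is named, and for count differences between settings the cause was not tested. None of the 12 differences called by limma changed sign under any setting. Of the 158 differences not called, 60 did in at least 1 setting, all of them 0.70 or less in size with all libraries. WT against KO at 10 weeks moved from 0 to 1 with the Novogene libraries alone. WT against KO+AAV at 10 weeks moved from 1 to 3 with edgeR, 4 with DESeq2 (3 adjusted, from 1) and 0 with the Novogene libraries alone, with or without KO+AAV replicate 5. Its adjusted count was 0 for Novogene alone, with or without replicate 5, for ICBR alone and without replicates 4 and 5. KO+AAV against KO at 10 weeks moved from 1 to 2 with TMM, 6 with edgeR and 8 with DESeq2 (1 adjusted, from 0), and to 0 for ICBR alone, for Novogene without replicate 5 and without replicates 4 and 5. Age in KO moved from 0 to 1 with edgeR, DESeq2 (1 adjusted) and no site term. Age in KO+AAV moved from 1 to 2 with TMM, 7 with edgeR (5 adjusted, from 1), 7 with DESeq2 (6 adjusted), 2 with no site term (2 adjusted) and 0 for Novogene without replicate 5, and its adjusted count was 0 for Novogene alone, with or without replicate 5. The change of KO+AAV against KO between ages moved from 0 to 1 with edgeR and with DESeq2. With a mean above 50, 3 members remained to be tested in the GFP experiment, and 3 were called (2 adjusted) in place of 8 and 7. In lung the count was 0 with a mean above 50 and 2 with DESeq2 (1 adjusted, from 0). The settings that drop replicates 4 and 5, or replicate 5 from the Novogene libraries, were chosen after seeing the data.

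Leaving out 1 library at a time gave 0 to 1 for WT against KO at 10 weeks (1 without WT 2, 3 or 5, KO 3, 5 or 7, or KO+AAV 2 of 40 weeks), with an adjusted count of 0 to 1 (1 without WT 5), and 1 to 2 for WT against KO+AAV (2 without WT 5). KO+AAV against KO at 10 weeks ran from 0 to 4. It was 0 without KO 7 or KO+AAV 5, 2 without WT 7 or KO 1, 2 or 3 of 40 weeks, 3 without WT 5, KO 5, KO+AAV 1 or 7, or WT 5 of 40 weeks, and 4 without KO 3, KO+AAV 3 or KO+AAV 2 of 40 weeks. Age in KO gave 0 to 1 (1 without WT 6, KO 7, KO+AAV 4, 5 or 7, WT 5 of 40 weeks or KO+AAV 2 of 40 weeks). Age in KO+AAV gave 1 to 4. It was 2 without WT 6, KO 6 or KO 1 of 40 weeks, 3 without KO+AAV 7, WT 5 of 40 weeks or KO+AAV 3 or 4 of 40 weeks, and 4 without WT 7, KO 3, KO 7, KO+AAV 1 or 3, or KO+AAV 5 of 40 weeks. The change of WT against KO+AAV between ages gave 0 to 1 (1 without WT 5, KO+AAV 1 or 7, WT 4 of 40 weeks or KO+AAV 5 of 40 weeks). The GFP experiment gave 7 to 8 called and 4 to 7 adjusted (4 without KO+GFP 3). Lung gave 0 to 2 (0 without KO 1, 2 or 4 or KO+AAV 2 or 4, and 2 without KO 3 or KO+AAV 1). All other counts of calls were the same with each library left out.

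The labels give groups the same replicate numbers but no shared litter, batch or day. Same-numbered libraries correlated at -0.38 to 0.58 over 51 pairs, with 23 of 72 libraries closest to their own number. In the GFP experiment this was 5 of 6, at r of 0.01 to 0.02, and in liver 0 of 8. White fat had a median r of 0.44, against -0.22 for other numbers. The main fits did not take the numbers as pairs, and pairing in the GFP experiment and white fat was not settled. With the replicate number as a block, the counts were 1 for WT against KO (1 adjusted, Mrc1), 2 for WT against KO+AAV and 3 for KO+AAV against KO at 10 weeks, and the other counts were within 1.5 times. In lung Csf1r was then called in place of Lyz2 (limma adjusted P = 0.173 and 0.241). The 40 differences of level between tissues moved by 1.22 to 1.47 log2 units between normalized counts and RPKM in 39 cases, with 0 reversed. Depth limits C1q in muscle, where the 3 chains together rested on as few as 37 reads a library in the GFP experiment and 31 in KO+AAV at 40 weeks.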
